A study of Homo sapiens with 12 samples.

Results

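The genes of mitosis and of the passage from G2 into M phase were followed in FaDu, an established human cell line from a head and neck squamous cell carcinoma. The 60 members were chosen by symbol, from the cyclins and CDK1 to kinesins, kinetochore proteins and condensins, out of 58288 genes listed. The members and the lists set beside them were chosen with earlier results of these data known. Their counts beside all genes thus describe these data and are no independent test. All 60 were found and all 60 entered the test, which took the 15973 genes at 1 or more TPM (transcripts per 1000000 transcripts) in at least 3 of the 12 libraries. Their mean TPM over the 12 libraries ran from 24.1 for CENPA to 402 for CDK1, so all lay well above the filter.

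FaDu cells that carried Cas9 and a non-targeting gRNA, called STING WT, were compared with FaDu cells in which STING (the gene TMEM173) was knocked out with a STING gRNA, called STING KO. Each was left unirradiated (0 Gy) or given 4 daily fractions of 2 Gy (RT), and 3 libraries of polyadenylated RNA were made for each of the 4 groups. The labels do not say whether the 3 libraries came from separate cultures, so p-values measure the spread between libraries, which may be technical, and the time between the last fraction and collection is not given. Each genotype was 1 cell line, so a difference between STING KO and STING WT cannot be told apart from a difference between those lines.

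Cells build the mitotic machinery afresh in each cycle. The genes that encode it are silent in G1, are switched on in late S and G2 phase by the B-MYB-MuvB complex and FOXM1, and are held down in resting or arrested cells by the DREAM complex, which assembles when the inhibitor p21 blocks the cyclin-dependent kinases. Both complexes bind a short promoter element called CHR, often downstream of CCAAT boxes that bind the factor NF-Y. Irradiated cells can halt in G2 with these transcripts high, or leave the cycle with them low.

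The promoter letters of 8 members are shown because all 8 hold, in the window searched below, a sequence feature that is common but not universal in the group. The 8 comprise 6 genes chosen from those that fell after radiation in at least 1 genotype, and 2 genes, ESPL1 and MKI67, that did not pass that test. The sequences are those of RefSeq on GRCh38.p14, written 5′ to 3′ along the gene, and they end at the RefSeq gene start or, for CDC20 and CCNF, where the GENCODE 29 gene begins. Capitals mark TTTGAA (the CHR element) and CCAAT (the NF-Y box) on either strand, so that TTCAAA and ATTGG are the same motifs read from the other strand. In MKI67 a CHR match shares its last base with a CCAAT match.
CDC20 promoter: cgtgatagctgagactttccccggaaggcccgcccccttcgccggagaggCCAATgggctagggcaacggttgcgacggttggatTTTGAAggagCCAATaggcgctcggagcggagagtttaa
CKS2 promoter: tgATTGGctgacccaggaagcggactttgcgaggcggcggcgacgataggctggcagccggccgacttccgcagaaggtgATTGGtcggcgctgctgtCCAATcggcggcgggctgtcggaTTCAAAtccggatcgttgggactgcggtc
CCNF promoter: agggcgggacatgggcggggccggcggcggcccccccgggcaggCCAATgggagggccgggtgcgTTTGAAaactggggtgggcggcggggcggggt
KIF11 promoter: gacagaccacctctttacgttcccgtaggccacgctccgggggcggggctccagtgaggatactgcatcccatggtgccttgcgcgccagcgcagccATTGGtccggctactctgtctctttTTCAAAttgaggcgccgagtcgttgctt
KIF14 promoter: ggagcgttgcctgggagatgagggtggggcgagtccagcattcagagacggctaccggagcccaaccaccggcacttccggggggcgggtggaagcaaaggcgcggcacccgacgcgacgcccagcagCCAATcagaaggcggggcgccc
CENPF promoter: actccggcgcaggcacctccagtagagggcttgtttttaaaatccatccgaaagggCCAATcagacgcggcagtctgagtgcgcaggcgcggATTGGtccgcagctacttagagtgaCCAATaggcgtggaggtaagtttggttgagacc
ESPL1 promoter: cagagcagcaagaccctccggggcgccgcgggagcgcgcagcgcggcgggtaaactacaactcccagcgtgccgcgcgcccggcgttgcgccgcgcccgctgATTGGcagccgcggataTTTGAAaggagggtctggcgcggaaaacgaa
MKI67 promoter: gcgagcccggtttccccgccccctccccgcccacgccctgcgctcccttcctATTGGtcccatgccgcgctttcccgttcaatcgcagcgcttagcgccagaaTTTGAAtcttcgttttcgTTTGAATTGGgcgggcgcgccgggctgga

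On GRCh38.p14 these stretches lie at chr1:43358831-43358954 (plus strand), chr9:89311045-89311194 (plus strand), chr16:2429297-2429393 (plus strand), chr10:92592980-92593129 (plus strand), chr1:200620752-200620901 (minus strand), chr1:214603045-214603194 (plus strand), chr12:53268149-53268298 (plus strand) and chr10:128126424-128126573 (minus strand). CDC20, the activator of the anaphase-promoting complex, has a CHR match at -62.5 between CCAAT matches at -98 and -53, where positions are those of the motif centre in bases and negative values lie before the gene start. In CKS2, a small CDK-binding subunit, the CHR match lies at -26.5, and in KIF11, the motor that pushes spindle poles apart, at -25.5. KIF14 and CENPF have no CHR match in the stretch shown, and theirs lie past the start, at 3.5 and 42.5.

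A promoter was matched by symbol for 48 of the 60 members, and for those the window from 250 bases before to 50 bases after the start was searched. TTTGAA was present on either strand in 34 of the 48 promoters (70.83%), against 4212 of 27305 promoters of all genes (15.43%) and 2 of 47 promoters of an S phase list (4.255%). CCAAT was present in 72.92% of the members' promoters, 35.7% of all promoters and 55.32% of the S phase promoters. Both motifs together were found in 54.17%, 6.083% and 2.128% of the same sets. CHR letters were thus common in the mitosis promoters and rare in those of S phase genes, while CCAAT letters were frequent in both. The 44 CHR matches had a median position of -25.5, and CDC20, DLGAP5 and several others held more than 1. The 12 members without a promoter in that table are AURKA, BUB3, TTK, WEE1, PKMYT1, KNL1, BIRC5, TPX2, RACGAP1, UBE2C, FOXM1 and HMGB2.

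**Figure D1:**
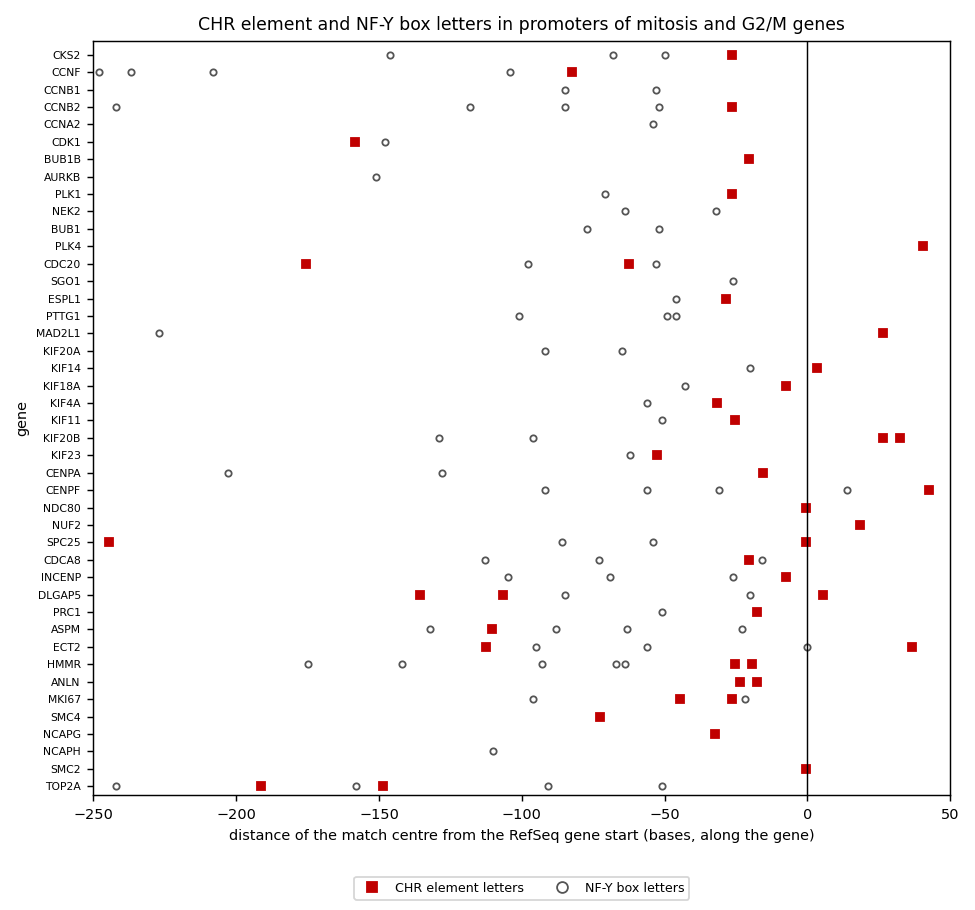
Position of CHR element letters (red squares) and NF-Y box letters (open circles) in the promoters of the mitosis and G2/M genes that hold either, with the distance of each match centre from the RefSeq gene start in bases on the horizontal axis and 1 gene per row. The 44 CHR matches cluster just before the start, with a median of -25.5.

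The targeted gene was read first. TMEM173 had a mean of 22.1 TPM in unirradiated STING WT cells and 5.81 TPM in unirradiated STING KO cells, and 23.1 and 6.95 TPM after radiation. The log2 fold change of STING KO against STING WT was -1.77 without radiation (adjusted p = 1.2e-05) and -1.60 with it (adjusted p = 2.0e-05), so the transcript was reduced and not absent. All 10 squamous epithelial markers were at a mean of 31.3 TPM or higher. After radiation 1 of them rose and 1 fell in each genotype: DSG3, a desmosomal cadherin, fell (-0.38 and -0.38 in STING WT and STING KO cells, adjusted p = 0.0064 and 0.0056) and EPCAM, an epithelial adhesion protein, rose (0.15 and 0.18, adjusted p = 0.046 and 0.023). Their summed TPM ranged from 8015 to 8088 in unirradiated and 7491 to 8010.1 in irradiated STING WT libraries, narrowly without overlap. In STING KO libraries the ranges were 7811 to 9592 and 6944 to 7915, which overlapped. Among 20 housekeeping genes, POLR2A rose (0.26 and 0.27, adjusted p = 0.0067 and 0.0062) and TUBB, a tubulin, fell (-0.15 and -0.24, adjusted p = 0.042 and 0.0054). Of the other cell types' markers, 1 of 8 fibroblast, 2 of 8 immune and 2 of 6 endothelial genes averaged 1 TPM or more. These were COL1A1 (7.28 TPM), CD68 (21.5 TPM), CD14 (3.28 TPM), CDH5 (13.2 TPM) and VWF (3.46 TPM). In 7 fibroblast, 5 immune and 4 endothelial genes the mean was under 0.1 TPM, PTPRC, DCN, KDR and EMCN among them. The summed endothelial markers ranged from 11.5 to 13.9 TPM in unirradiated and 18.3 to 18.7 TPM in irradiated STING WT libraries, and from 13.03 to 15.9 and 19.9 to 23.9 TPM in STING KO, through CDH5 and VWF. CDH5 rose after radiation in both genotypes, by 0.61 and 0.61 on the log2 scale (adjusted p = 0.029 and 0.026). The summed immune markers, which were mostly CD68, ranged from 20.1 to 26.04 TPM in unirradiated and 28.3 to 34.97 TPM in irradiated STING WT libraries, without overlap, and from 19.5 to 29.02 and 21.8 to 28.98 TPM in STING KO, with overlap. CD68 did not pass the test (0.62 ± 0.20 and 0.046 ± 0.20, adjusted p = 0.14 and 0.94). The fibroblast markers summed to between 6.41 and 9.35 TPM in all 12 libraries. The part of these in the results below was not tested.

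Radiation was followed by lower levels of mitotic transcripts in STING WT cells. The genes that fell included KIF20A, a motor of the central spindle, DLGAP5, which stabilises the fibres that hold chromosomes, CENPE, a kinetochore motor, and the cyclins CCNA2 and CCNB2. Of the 60 members, 13 fell at an adjusted p under 0.05 in limma and none rose, where 240 of all 15973 genes (1.5%) and 154 of the 6436 genes expressed at least as highly as the lowest member (2.39%) fell. The median log2 fold change of the 60 was -0.18, beside 0.017 for all genes tested. In 37 of the 60 the 3 irradiated libraries lay wholly below the 3 unirradiated ones, against 10.1% of all genes. A lower mean was found in 57 of the 60, against 45.97% of all genes. Summed over the members, the TPM ranged from 7839 to 8284 in unirradiated and 6848 to 7067 in irradiated STING WT libraries. In RNA from whole cultures, fewer cells in G2 and M phase and less of each RNA per cell cannot be told apart. Without STING WT RT replicate 1, or without replicate 2 of that group, the count of members that fell was 8 in place of 13. It was 4 when only the 6 STING WT libraries were fitted. Over all genes, calls in either direction fell from 597 to 242, 274 and 166 in these settings.

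STING KO cells showed a fall of similar reach. Here 14 members fell and none rose, where 271 of all genes (1.7%) and 185 of the 6436 genes expressed at least as highly as the lowest member (2.87%) fell. The median log2 fold change was -0.16, beside 0.019 for all genes. The irradiated libraries lay wholly below the unirradiated ones in 30 of the 60 members, against 10.6% of all genes. A lower mean was found in 49 of the 60, against 45.7% of all genes. The summed TPM of the members ranged from 8102 to 8363 before and 7437 to 7597 after radiation. This count leaned on single libraries more than that of STING WT cells. It was 6 without STING KO 0 Gy replicate 1 and 5 without replicate 2 of that group. Without STING KO RT replicates 1, 2 and 3 it was 8, 9 and 7. Over all genes, calls in either direction fell from 590 to 302, 270, 364, 308 and 308 in that order. With only the 6 STING KO libraries the member count was 5, and with the replicate number as a block it was 8. Those settings left 195 and 359 calls over all genes.

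**Figure D2:**
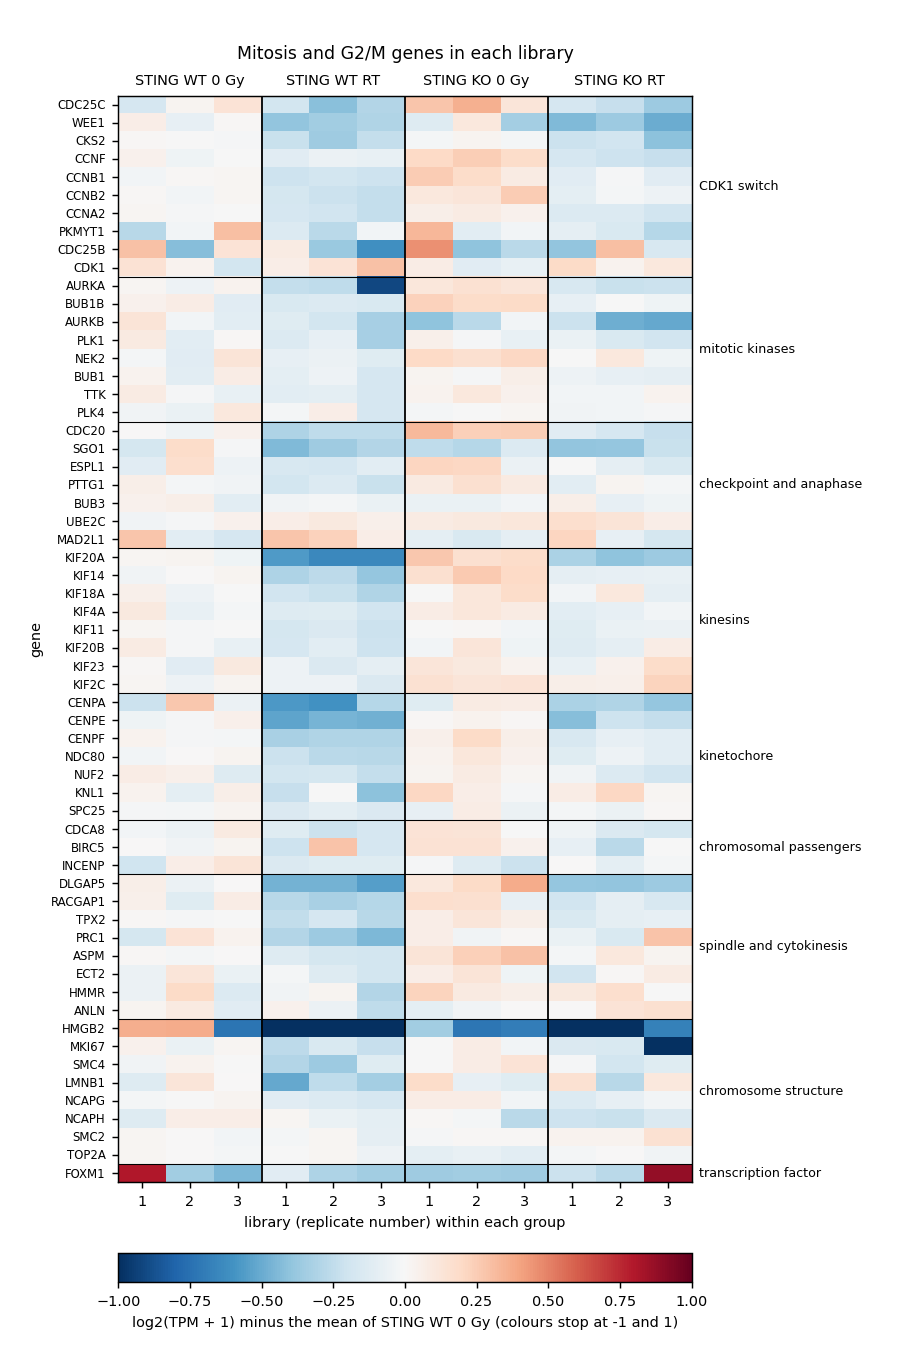
Level of each of the 60 mitosis and G2/M genes (rows, by role) in each of the 12 libraries (columns, 3 per group), as log2(TPM + 1) minus the mean of the unirradiated STING WT libraries, with blue for lower and red for higher and the colours limited to -1 and 1. The irradiated STING WT columns are mostly blue, the irradiated STING KO columns are blue to a lesser extent and the unirradiated STING KO columns are mostly pale red. Single dark cells mark libraries that stood apart, such as FOXM1 in STING WT 0 Gy replicate 1 and MKI67 in STING KO RT replicate 3.

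The same 10 genes fell in both genotypes, which is 76.9% of the 13 in STING WT and 71.4% of the 14 in STING KO cells. They are KIF20A, KIF14, DLGAP5, TPX2, CENPE, CENPF, CDC20, CKS2, CCNA2 and CCNB2. NDC80, KIF11 and HMGB2 fell in STING WT cells and did not pass the test in STING KO cells, and CDC25C, CCNB1, BUB1B and CCNF did the reverse. No member passed the test of the difference between the radiation effects, which 3 of all genes (0.0188%) passed. At an unadjusted p under 0.05 there were 3 of the 60 members, beside 1056 of all 15973 genes. Of the 60 members, 49 had a lower mean after radiation in both genotypes and 3 a higher mean in both. Across the 60, the radiation effects of STING WT and STING KO cells, which come from separate libraries, had a Pearson r of 0.51 and a Spearman rho of 0.56, and r was 0.65 without HMGB2 and FOXM1. This describes genes within 1 experiment, and genes are not independent replicates. The overlap of calls, the shared direction and these correlations were not computed over all genes. They therefore cannot be read as particular to the members. In GENCODE 29, 35 of the 60 members overlap another gene and 14 have a pseudogene named after them, CDC20 and DLGAP5 with 1 each, and how shared reads were assigned is not given in the sources used here.

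**Figure D3:**
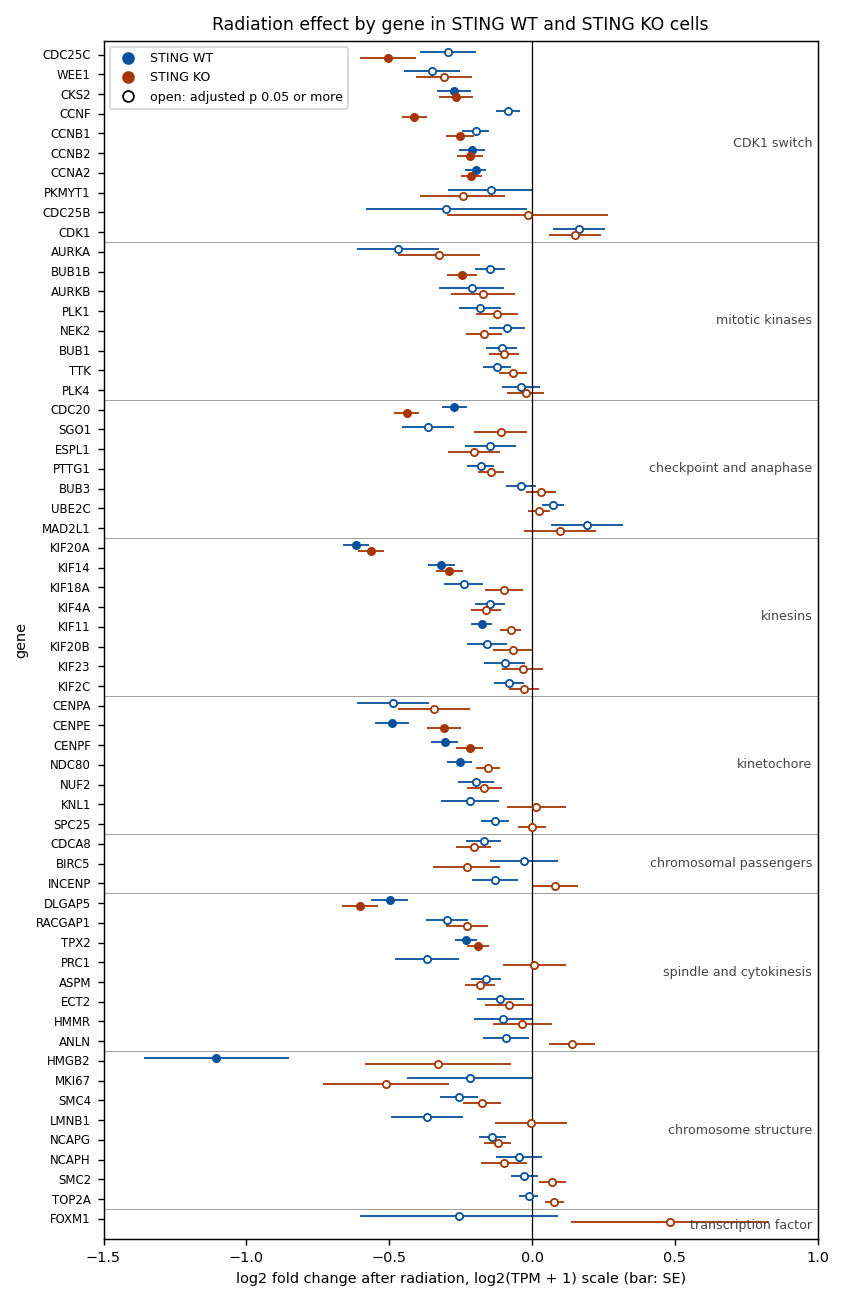
Log2 fold change after radiation of each of the 60 genes, on the log2(TPM + 1) scale with the SE as a bar, in STING WT (blue) and STING KO cells (brown). Filled points passed an adjusted p of 0.05 and all of those lie left of 0, with KIF20A, DLGAP5 and CENPE far to the left in both genotypes and HMGB2 farthest in STING WT cells with a wide error.

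The switch that starts mitosis is CDK1 with its cyclins. CCNB1, cyclin B1, was at 321, 329 and 332 TPM in unirradiated and 284, 289 and 283 TPM in irradiated STING WT cells. The STING KO values were 391, 371 and 346 TPM and then 303, 324 and 302 TPM. The groups did not overlap in either genotype, yet the change passed the test in STING KO cells (-0.25 ± 0.049 as log2 fold change and SE, adjusted p = 0.021) and missed it in STING WT cells (-0.20 ± 0.049, adjusted p = 0.053). CCNB2, the other B-type cyclin of the group, fell from 176, 172 and 177 to 155, 151 and 148 TPM in STING WT cells (-0.21 ± 0.046, adjusted p = 0.035). Its STING KO values were 189, 190.1 and 209 and 163, 173 and 169 TPM (-0.22 ± 0.046, adjusted p = 0.032), almost the same fall, and each call was lost in 10 of 20 alternatives. CCNA2, cyclin A2, which works in S phase and in early mitosis, went from 136, 133 and 134 to 119, 117 and 114 TPM in STING WT cells (-0.20 ± 0.037, adjusted p = 0.018). STING KO values of 139, 142 and 138 TPM became 122, 122 and 117 TPM (-0.21 ± 0.037, adjusted p = 0.013). All 3 of these cyclins were thus lower in every irradiated library than in any unirradiated library of the same genotype.

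CKS2, whose promoter is shown above, fell from 327, 323 and 322 to 278, 253 and 274 TPM in STING WT cells (-0.27 ± 0.060, adjusted p = 0.034). The STING KO fall ran from 319, 330.5 and 319 to 279, 284 and 243 TPM (-0.27 ± 0.060, adjusted p = 0.037). These calls were the least steady of those shared by both genotypes, being lost in 12 and 15 of 20 alternatives. CDC25C, a phosphatase that activates CDK1 at mitotic entry, was at 22.3, 25.7 and 27.8 and then 22.1, 18.6 and 20.4 TPM in STING WT cells, where the ranges did not overlap and the test was missed (adjusted p = 0.14). It fell in STING KO cells from 30.8, 32.5 and 27.5 to 22.3, 21.3 and 19.4 TPM (-0.51 ± 0.098, adjusted p = 0.021). CDK1 itself did not follow its cyclins. Its values were 425, 394 and 338 TPM before and 401, 421 and 471 TPM after radiation in STING WT cells, and 404, 356 and 364 and 439, 393 and 414 TPM in STING KO cells. The libraries overlapped in both genotypes, and the log2 fold changes of 0.16 and 0.15 did not pass the test (adjusted p = 0.38 and 0.43). WEE1, the kinase that restrains CDK1, was lower in all 3 irradiated STING WT libraries (27.4, 28.3 and 29.3 TPM, from 38.1, 34.3 and 36.7 TPM) but missed the threshold (-0.35 ± 0.098, adjusted p = 0.084). PKMYT1, the membrane-bound inhibitor of CDK1, and CDC25B did not pass in either genotype.

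CCNF was the member with the smallest p for a difference between the radiation effects of STING WT and STING KO cells. It encodes cyclin F, an F-box protein that targets other proteins for destruction rather than activating a kinase. Its values were 55.5, 52.3 and 53.9 TPM in unirradiated and 49.7, 51.7 and 51.0 TPM in irradiated STING WT cells, a change that did not pass the test (-0.084 ± 0.043, adjusted p = 0.34). In STING KO cells they went from 61.9, 64.2 and 61.5 to 47.9, 46.6 and 45.7 TPM, which passed (-0.41 ± 0.043, adjusted p = 0.00081). Unirradiated STING KO libraries thus stood above, and irradiated ones below, every STING WT library. The difference between the radiation effects was -0.33 ± 0.061 with an unadjusted p of 0.00029, but 0.30 after adjustment over all genes. At its locus CCNF overlaps MIR6767 on the same strand and 3 unnamed genes on the other strand in GENCODE 29, and the strand setting of the authors' quantification is not given.

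Among the mitotic kinases, all 8 had a lower mean after radiation in both genotypes. None fell past the threshold in STING WT cells and 1 of 8 did in STING KO cells, where 1.5% and 1.7% of all genes fell. That kinase gene, BUB1B, encodes BubR1 of the mitotic checkpoint complex. It was at 69.4, 66.97 and 67.4 TPM in unirradiated and 55.6, 58.9 and 57.2 TPM in irradiated STING KO cells (-0.24 ± 0.052, adjusted p = 0.032), and at 60.5, 61.9 and 54.4 and 52.8, 53.5 and 52.9 TPM in STING WT cells (-0.15 ± 0.052, adjusted p = 0.17). Its STING KO call was lost in 11 of 20 alternatives. The gene overlaps the readthrough gene BUB1B-PAK6 on the same strand. AURKA, the centrosome kinase that TPX2 activates, had 160.1, 152 and 162 TPM before and 134, 132 and 83.5 TPM after radiation in STING WT cells. The last of these libraries stood apart from the other two, the change did not pass the test (-0.47 ± 0.14, adjusted p = 0.11), and without that library it was smaller and did pass (-0.25, adjusted p = 0.029). AURKA in STING KO cells was at 171, 175 and 172 and 142, 135 and 136 TPM, with no overlap and an adjusted p of 0.26. That change of -0.33 passed with only the 6 STING KO libraries (adjusted p = 0.032) and without STING WT RT replicate 3, which enters through the shared estimate of the spread (adjusted p = 0.0036). PLK1, the polo-like kinase of mitotic entry, had log2 fold changes of -0.18 and -0.12 that missed the test, as did AURKB, BUB1, TTK, NEK2 and PLK4.

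At the exit from mitosis, CDC20 fell in both genotypes. It was at 327, 316 and 335 TPM in unirradiated STING WT cells and at 263, 274 and 273 TPM after radiation (-0.27 ± 0.043, adjusted p = 0.0082). STING KO cells began higher, at 408, 385 and 388 TPM, and fell to 302, 291 and 278 TPM (-0.44 ± 0.043, adjusted p = 0.00062). After radiation the genotypes were close together, with the lowest STING KO library just above the STING WT range. The other members of this group, which holds the brakes and the scissors of anaphase, did not pass the test. SGO1, which protects the cohesin of centromeres, was at 35.8, 46.2 and 40.2 TPM and then 29.5, 31.4 and 32.9 TPM in STING WT cells (-0.37 ± 0.092, adjusted p = 0.057), without overlap. The SGO1 values in STING KO cells were 33.8, 33.2 and 36.9 and 30.6, 30.8 and 34.6 TPM and overlapped (adjusted p = 0.58). PTTG1, the securin that inhibits separase, and ESPL1, separase itself, had log2 fold changes of -0.18 and -0.15 in STING WT cells (adjusted p = 0.065 and 0.45). UBE2C, the ubiquitin-conjugating enzyme of the same pathway, and MAD2L1 had higher means after radiation, by 0.071 and 0.19, and did not pass (adjusted p = 0.37 and 0.48).

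The kinesins are motors that walk on microtubules, and 3 of 8 fell in STING WT and 2 of 8 in STING KO cells. The shares of all genes that fell were 1.5% and 1.7%. KIF20A, which works at the central spindle between the separating chromosomes, had the smallest adjusted p of all members. Its STING WT values of 129, 130.4 and 124 TPM dropped to 85.9, 81.6 and 81.6 TPM (-0.62 ± 0.046, adjusted p = 9.3e-05). In STING KO cells 154, 143 and 146 TPM became 102, 96.6 and 99.3 TPM (-0.56 ± 0.046, adjusted p = 0.00019). No irradiated library reached an unirradiated one, and both calls held in all 20 alternatives. On the genome KIF20A overlaps BRD8 and CDC23, which lie on the opposite strand. KIF14, a motor of cytokinesis, fell from 58.3, 60.2 and 61.2 to 48.1, 49.9 and 45.7 TPM in STING WT (-0.32 ± 0.047, adjusted p = 0.0055) and from 67.02, 71.8 and 69.1 to 56.3, 56.5 and 56.7 TPM in STING KO cells (-0.29 ± 0.047, adjusted p = 0.0089). KIF11 fell more modestly, from 134, 131 and 132 to 117, 119.9 and 114 TPM in STING WT cells (-0.18 ± 0.037, adjusted p = 0.031), a call lost in 9 of 20 alternatives. Its STING KO values, 132, 133 and 129.7 and 122, 126 and 127 TPM, did not overlap and missed the test (adjusted p = 0.32). The other 5 kinesins, KIF18A, KIF20B, KIF23, KIF2C and KIF4A, had lower means in both genotypes without passing.

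At the kinetochore, the structure that ties chromosomes to the spindle, 3 of 7 members fell in STING WT and 2 of 7 in STING KO cells. Among all genes 1.5% and 1.7% fell. CENPE, a motor of the outer kinetochore, was at 51.6, 52.7 and 55.0 TPM and fell to 36.6, 38.2 and 37.7 TPM in STING WT cells (-0.49 ± 0.059, adjusted p = 0.0017). Its values in STING KO cells were 53.6, 54.6 and 53.6 TPM before and 39.3, 45.9 and 44.9 TPM after radiation (-0.31 ± 0.059, adjusted p = 0.021). The 2 genotypes began level, and the irradiated STING KO libraries all lay above the irradiated STING WT libraries, though the difference between the effects, 0.18 ± 0.084, did not pass (adjusted p = 0.76). CENPF, another outer kinetochore protein, went from 101, 98.6 and 97.6 to 79.2, 80.5 and 80.5 TPM in STING WT (-0.31 ± 0.047, adjusted p = 0.0069) and from 103, 114 and 103 to 88.7, 93.5 and 92.1 TPM in STING KO cells (-0.22 ± 0.047, adjusted p = 0.033), where the STING KO call was lost in 12 of 20 alternatives. NDC80, which binds the microtubule, fell from 73.2, 74.7 and 75.9 to 64.2, 61.5 and 61.4 TPM in STING WT cells (-0.25 ± 0.043, adjusted p = 0.011). It was at 76.3, 80.9 and 77.1 and 68.5, 72.1 and 69.4 TPM in STING KO cells, lower in all irradiated libraries but short of the threshold (adjusted p = 0.078). CENPA, the histone that marks the centromere and the member with the lowest mean, had 23.5, 33.4 and 26.3 TPM and then 18.1, 17.7 and 22.4 TPM in STING WT cells (-0.49 ± 0.13, adjusted p = 0.063), with a wide spread before radiation. NUF2, SPC25 and KNL1 did not pass.

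The chromosomal passenger complex carries AURKB to the centromere and then to the midzone, and none of its 3 other subunits listed here passed the test. CDCA8, borealin, had log2 fold changes of -0.17 ± 0.061 and -0.20 ± 0.061 in STING WT and STING KO cells (adjusted p = 0.18 and 0.10). BIRC5, survivin, was at 59.5, 57.9 and 60.6 TPM and then 51.3, 72.7 and 52.6 TPM in STING WT cells, where a single irradiated library exceeded all unirradiated ones. The BIRC5 change of -0.030 had an adjusted p of 0.93, and its sign turned when STING WT RT replicate 1 or 3 was left out. INCENP, the scaffold, had a mean change of -0.13 in STING WT and 0.081 in STING KO cells.

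Of the spindle and cytokinesis proteins, 2 of 8 fell in each genotype, where 1.5% and 1.7% of all genes fell in STING WT and STING KO cells. DLGAP5 was at 205, 189 and 198 TPM in unirradiated and 142, 142 and 134 TPM in irradiated STING WT cells (-0.50 ± 0.063, adjusted p = 0.0022). The corresponding STING KO values were 212, 226 and 255 TPM and 151, 149.8 and 153 TPM (-0.60 ± 0.063, adjusted p = 0.00081). Like KIF20A it kept both calls in all 20 alternatives, and its irradiated levels in the 2 genotypes were close although STING KO cells had started higher. TPX2, which nucleates spindle microtubules and activates AURKA, fell from 295, 291 and 293 to 247, 261 and 241 TPM in STING WT (-0.23 ± 0.040, adjusted p = 0.012) and from 307, 318 and 305 to 264, 276 and 276 TPM in STING KO cells (-0.19 ± 0.040, adjusted p = 0.029), the latter call being lost in 10 of 20 alternatives. PRC1, the crosslinker of the central spindle, was at 179, 222 and 206 and 165, 156 and 147 TPM in STING WT cells, and at 211, 196 and 203 and 192, 181 and 246 TPM in STING KO cells. Neither change passed (-0.37 ± 0.11 with adjusted p = 0.11, and 0.0079 ± 0.11 with adjusted p = 0.98), and the irradiated STING KO libraries were spread widely. ANLN, ASPM, ECT2, HMMR and RACGAP1 also did not pass.

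**Figure D4:**
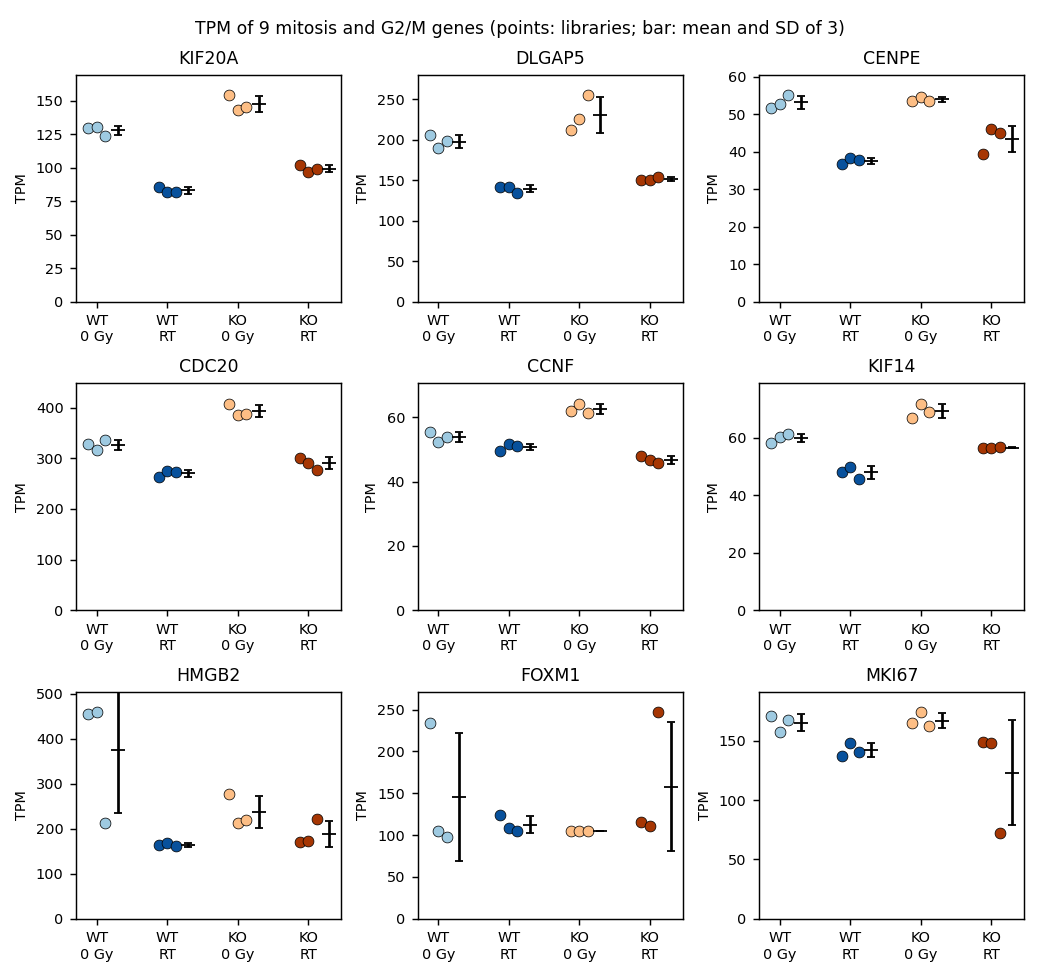
TPM of 9 of the genes in each library (points), with the mean and SD of the 3 libraries of a group as a bar, on axes that start at 0. In KIF20A, DLGAP5, CENPE, CDC20 and KIF14 every irradiated library lies below the unirradiated ones of its genotype, in CCNF clearly so for STING KO, and in HMGB2, FOXM1 and MKI67 1 library of a group stands apart.

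The proteins that shape chromosomes were uneven. TOP2A, the topoisomerase that untangles DNA, was at 305, 302 and 297 TPM and 301, 305 and 290.5 TPM in STING WT cells and had log2 fold changes of -0.012 and 0.078 with an SE of 0.033, the tightest of the group. The condensin subunits NCAPG, NCAPH, SMC2 and SMC4 and the lamin LMNB1 did not pass either. HMGB2, a DNA-bending protein, had a large log2 fold change in STING WT cells (-1.105 ± 0.25, adjusted p = 0.041). Its values were 454, 459 and 212 TPM before and 163, 169 and 160.4 TPM after radiation, so the third unirradiated library lay far below the other two and yet above the irradiated ones. The call was lost in 15 of 20 alternatives, and without that library the change was -1.47 (adjusted p = 7.7e-04). In STING KO cells HMGB2 was at 278, 214 and 218 and 171, 173 and 221 TPM, which overlapped. MKI67, the proliferation antigen Ki-67, was at 171, 157 and 168 TPM and then 138, 149 and 140.3 TPM in STING WT cells, without overlap. In irradiated STING KO cells it was at 149, 148 and 72.1 TPM, from 165, 174 and 162 TPM, and the change was -0.51 with all libraries and -0.17 without the lowest (adjusted p = 0.25 and 0.17).

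FOXM1, the transcription factor of the group, could not be read firmly. It was at 234, 105 and 97.7 TPM in unirradiated and 124, 108 and 105 TPM in irradiated STING WT cells, and at 105, 105 and 104 and 115, 111 and 247 TPM in STING KO cells. In 2 groups 1 library was more than 1.5 times as high as both others, while the remaining 10 libraries lay between 97.7 and 124 TPM. The log2 fold change was -0.26 ± 0.35 in STING WT and 0.48 ± 0.35 in STING KO cells, and neither passed (adjusted p = 0.77 and 0.52). Without STING WT 0 Gy replicate 1 it turned to 0.14 in STING WT cells, and without STING KO RT replicate 3 it was 0.11 in STING KO cells. Lone libraries of this kind also occurred elsewhere. Of the 6436 genes expressed at least as highly as the lowest member, 5.41 to 6.26% had one in a given group, against 1 or 2 members of 60.

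STING KO and STING WT cells were next compared at the same dose. Without radiation the members had slightly higher levels in STING KO cells, at a median difference of 0.061 on the log2 scale beside -0.021 for all genes. Only CDC20 (0.27 ± 0.043, adjusted p = 0.010) and CCNF (0.21 ± 0.043, adjusted p = 0.039) were higher past the threshold, 2 of 60 where 74 of all genes (0.463%) were. In 19 members the 3 STING KO libraries lay wholly above the STING WT libraries, against 8.51% of all genes, and no member was lower past the threshold. The CDC20 call held in 19 of 20 alternatives and that of CCNF in 6 of 20. Scaling by median-of-ratios factors raised the count to 6, and fitting only the 6 unirradiated libraries left 0. Over all genes, calls in either direction went from 276 to 308 and 103 in these settings.

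After radiation the median was 0.11, beside -0.017 for all genes. A higher mean in STING KO cells was found in 50 of the 60 members and 7343 of all 15973 genes. KIF20A (0.26 ± 0.046, adjusted p = 0.013) and KIF14 (0.23 ± 0.047, adjusted p = 0.022) were higher past the threshold, again 2 of 60, where 148 of all genes (0.927%) were. The STING KO libraries lay wholly above the STING WT libraries in 27 members, against 9.62% of all genes. For KIF20A the irradiated STING KO values of 102, 96.6 and 99.3 TPM all exceeded the irradiated STING WT values of 85.9, 81.6 and 81.6 TPM, and the unirradiated STING KO values had stood above their STING WT counterparts in the same way (0.20 ± 0.046, adjusted p = 0.059). Each of these comparisons shares its libraries with the radiation comparisons. The count was 0 without STING WT RT replicate 3 and 0 with only the 6 irradiated libraries. It was 1 without STING WT RT replicate 1 or 2 or STING KO RT replicate 2 or 3. Over all genes, 573 calls in either direction became 351, 252, 310, 314, 371 and 325 in the same order. The median difference between the radiation effects of STING KO and STING WT cells was 0.042 over the members and -0.0024 over all genes. It was above 0 in 40 of the 60 members and 7895 of all 15973 genes.

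Among the 15 members that fell in either genotype and had a promoter, 10 (66.67%) held the CHR letters, against 24 of the other 33 (72.73%). CCAAT was found in 73.33% and 72.73% of the same sets, and at 2 or more places in 53.33% and 39.39%. KIF20A, CCNA2, CCNB1, CENPE and CDC25C fell in at least 1 genotype and have no TTTGAA in the window. In contrast, ESPL1 and MKI67, shown above, have it and did not pass the test.

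Other genes of the cell cycle give the setting. Of 85 further mitosis genes, 8 fell and 1 rose in STING WT cells and 11 fell and 1 rose in STING KO cells, with medians of -0.053 and -0.039. Over all genes, 1.5% fell and 2.2% rose in STING WT cells, and 1.7% fell and 2.0% rose in STING KO cells. PSRC1, a microtubule-binding protein, fell by 0.58 and by 0.51 on the log2 scale in STING WT and STING KO cells (adjusted p = 0.0014 and 0.0029). The cohesin subunit STAG1 (-0.40 ± 0.078, adjusted p = 0.023) and CDCA3 (-0.36 ± 0.081, adjusted p = 0.037) fell in STING WT cells. NDE1, which acts with dynein (-0.66 ± 0.13, adjusted p = 0.021), and SGO2, a shugoshin (-0.36 ± 0.065, adjusted p = 0.015), fell in STING KO cells. None of 17 subunits of the anaphase-promoting complex passed in either genotype, where medians were 0.027 and 0.092. Of 56 S phase genes none passed in STING WT cells, with a median of 0.023, and only CLSPN, a replication checkpoint protein, rose in STING KO cells (0.30 ± 0.065, adjusted p = 0.036), with a median of 0.032. No S phase gene fell past the threshold in either genotype. Since so small a share of all genes fell, counts of 0 in lists of 17 and 56 genes do not set these lists apart.

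**Figure D5:**
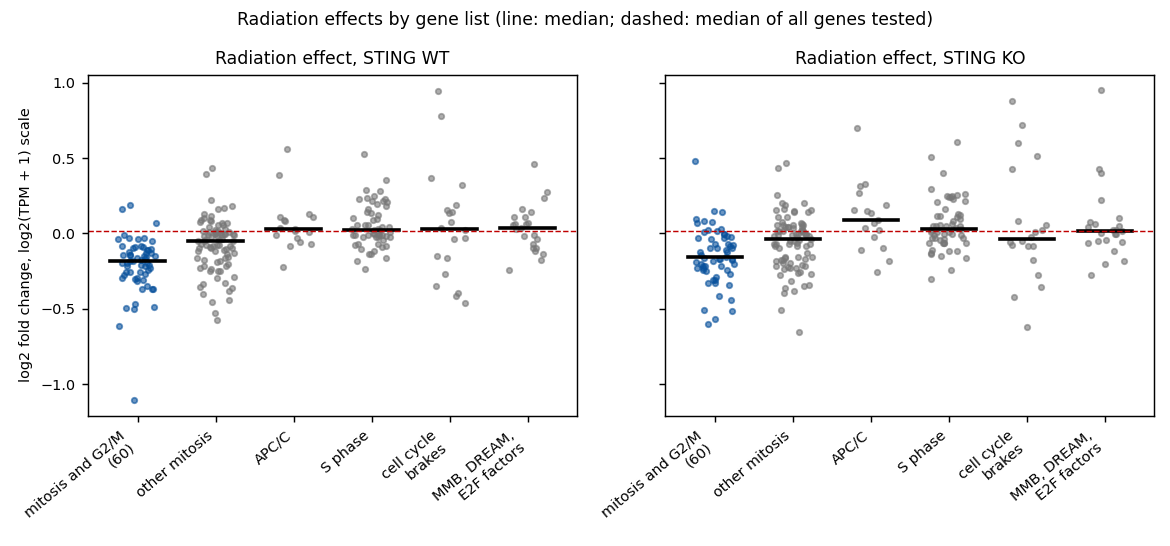
Log2 fold change after radiation of each gene (points) of 6 cell cycle lists in STING WT (left) and STING KO cells (right), with the median of each list as a black line and the median of all genes tested as a dashed red line. The 60 mitosis and G2/M genes have the medians -0.18 and -0.16, and the S phase genes 0.023 and 0.032.

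Among the regulators of these genes, the inhibitor p21, encoded by CDKN1A, moved the other way. It rose from 26.8, 28.9 and 23.5 to 49.0, 46.1 and 42.6 TPM in STING WT cells (0.78 ± 0.093, adjusted p = 0.0016). STING KO cells had less of it throughout, 16.3, 15.7 and 15.4 TPM before and 27.6, 23.4 and 22.6 TPM after radiation (0.60 ± 0.093, adjusted p = 0.0068). Irradiated STING KO cells thus stood at about the level of unirradiated STING WT cells. STING KO was lower by 0.70 without and by 0.88 with radiation on the log2 scale (adjusted p = 0.0033 and 0.00042), while the difference between the radiation effects was -0.18 ± 0.13 and did not pass (adjusted p = 0.86). Its part in the levels of the mitotic genes was not tested. Of 20 cell cycle brakes, 2 rose and 2 fell in each genotype. Among all genes 2.2% rose and 1.5% fell in STING WT cells, and 2.0% rose and 1.7% fell in STING KO cells. The other brake that rose was PLK3, a stress-responsive kinase, with 0.94 and 0.88 in the 2 genotypes (adjusted p = 0.015 and 0.021), though from below 5 TPM. CDKN2D fell in both genotypes (-0.39 ± 0.076 and -0.35 ± 0.076, adjusted p = 0.021 and 0.032) and CDKN2C in STING WT cells (-0.41 ± 0.053, adjusted p = 0.0024), and both encode inhibitors of the G1 kinases. SFN, the 14-3-3 sigma protein, fell in STING KO cells (-0.28 ± 0.046, adjusted p = 0.010).

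Of 23 transcription factors and complex subunits that act on these promoters, 1 passed in each genotype, where 597 and 590 of all 15973 genes did. NFYB, a subunit of the factor that binds CCAAT, fell in STING WT cells (-0.24 ± 0.053, adjusted p = 0.034), and LIN37, a DREAM subunit, rose in STING KO cells (0.40 ± 0.092, adjusted p = 0.040). MYBL2, which encodes B-MYB, had changes of 0.058 and -0.0033, E2F1 of -0.0097 and -0.061, and LIN54, the subunit that touches the CHR, of -0.019 and 0.22 in STING WT and STING KO cells, none past the threshold. Of 5 G1 cyclins and CDKs, 2 rose in STING WT and 1 in STING KO cells, and none fell past the threshold. The shares of all genes that rose were 2.2% and 2.0%. CCND2, a D-type cyclin, rose in both genotypes, from 22.0, 22.5 and 24.2 to 31.1, 32.7 and 32.7 TPM in STING WT (0.47 ± 0.058, adjusted p = 0.0018) and from 9.44, 9.18 and 9.11 to 15.5, 15.4 and 14.1 TPM in STING KO cells (0.64 ± 0.058, adjusted p = 0.00037). Its relative CCND1 rose in STING WT cells (0.22 ± 0.037, adjusted p = 0.011) and did not pass in STING KO cells (0.060 ± 0.037, adjusted p = 0.45). CCND3 did not pass in either genotype (0.75 ± 0.36 and -0.019 ± 0.36, adjusted p = 0.30 and 0.99).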

How the data were processed

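RNA-Seq was done on polyadenylated RNA as paired ends. The authors deposited 1 table of TPM per gene and library, and their processing notes name HISAT2, StringTie, DESeq2 and the build hg38 (their versions, the annotation and the strand setting are not given in the sources used here). Each library sums to 1000000, and TPM keeps no depth, so error is judged only from how far libraries of the same group differ. That spread was pooled over the 4 groups and drew on other genes, so libraries of other groups enter each test. NT2 columns were taken as STING WT (non-targeting gRNA) and A63 columns as STING KO.

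From the deposited TPM, log2(TPM + 1) was taken for 15973 genes (TPM of 1 or higher in 3 libraries or more) and modelled in limma 3.58.1 under R 4.3.3 by 4 group means, 8 residual degrees of freedom and an intensity trend. P-values of 5 contrasts were adjusted over all genes (Benjamini-Hochberg, threshold 0.05), and the code was tested on simulated data. Every fold change refers to log2(TPM + 1), which understates changes of low genes.

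The members and lists were chosen with earlier results of these data known. Values are printed for members past the threshold in any contrast and for the largest change in each subgroup, for up to 3 of the largest called radiation changes of each other list, and for TMEM173, CDKN1A, E2F1, MYBL2 and LIN54. PLK1, PTTG1, ESPL1, UBE2C, MAD2L1, INCENP, TOP2A, PRC1, CCND3 and CD68 were added after their values were seen. SFN and the STING WT change of CDKN2D are also printed outside this rule. Alternatives tried were quantile normalization, median-of-ratios factors, no filter or a minimum mean TPM of 5, a pseudocount of 0.1, no trend, the replicate number as a block, only the 6 libraries compared, and each library left out.

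Promoters were matched by symbol to RefSeq (GRCh38.p14, the first listed per gene). For 43 of 48 the last 30 bases occur in a GENCODE 29 transcript of the gene. The set of 6436 genes at or above the lowest member's mean TPM has no upper limit and was chosen after seeing the data. Overlapping genes were read from GENCODE 29 (58 of 60 identifiers matched with their version).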

Additional observations from a re-analysis of the deposited data

How the results depend on the processing

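The medians of the members kept their direction in all 5 contrasts under all alternatives, while the counts of members past the threshold moved. For the radiation effect in STING WT cells the count of 13 became 4 with only the 6 libraries compared, 9 without the trend and 10 without the filter. It became 16 at a mean TPM of at least 5, 15 with quantile normalization and 18 with median-of-ratios factors. It ran from 8 to 14 when 1 library was left out. For the radiation effect in STING KO cells the count of 14 became 9 without the trend, 8 with the replicate number as a block and 5 with only the 6 libraries. It became 12 with quantile normalization and 15 with median-of-ratios factors, and ran from 5 to 13 with 1 library left out. For STING KO against STING WT without radiation the count of 2 became 4 at a mean TPM of at least 5, 6 with median-of-ratios factors, 4 with quantile normalization, 1 without the trend, 1 with the replicate block and 0 with only the 6 libraries, and ran from 1 to 2 with 1 library left out. After radiation the corresponding count of 2 became 4, 5 and 4 under that filter and those scalings and 0 with only the 6 libraries, and ran from 0 to 3 with 1 library left out. The difference between the radiation effects stayed at 0 members throughout. In the main fit 3 members had an unadjusted p under 0.05 there, beside 1056 of all 15973 genes. Calls over all genes, in either direction, moved too. With only the 6 libraries compared, 597, 590, 276 and 573 became 166, 195, 103 and 252, in the order of the contrasts above. For the radiation effects in STING WT and STING KO cells, leaving 1 library out gave 242 to 543 and 270 to 559. Fits to 6 libraries have fewer residual degrees of freedom. Otherwise the cause was not tested.

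For single genes, the BIRC5 change in STING WT cells ran from -0.19 to 0.059 with 1 library left out, being above 0 without STING WT RT replicate 1 (0.059) or 3 (0.041). That of FOXM1 ran from -0.48 to 0.14, the last without STING WT 0 Gy replicate 1. The share of promoters with the CHR letters rose from 70.83% to 85.42% when TTTAAA was also accepted, where 24.26% of all promoters hold either.

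Over all genes tested, same-numbered libraries of different groups did not deviate together (18 pairs, correlations from -0.060 to 0.064). The main fit did not treat the numbers as a pairing, and a small shared effect would not be seen this way. With the replicate block the count for the radiation effect in STING WT cells was 9, and calls over all genes went from 597 to 315. Depth is unknown, and each group had 3 libraries.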
